A study of Arabidopsis thaliana with 9 samples.

Results

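Transcripts of 10 genes for antioxidant enzymes and the alternative oxidase were followed in roots of Arabidopsis thaliana (ecotype Col-0). The genes were taken by their locus identifiers from a table of read counts for 28775 genes. They were AOX1A (AT3G22370), the catalases CAT1 (AT1G20630), CAT2 (AT4G35090) and CAT3 (AT1G20620), the ascorbate peroxidases APX1 (AT1G07890) and APX2 (AT3G09640), and the superoxide dismutases CSD1 (AT1G08830), CSD2 (AT2G28190), FSD1 (AT4G25100) and MSD1 (AT3G10920). The 9 libraries formed 3 groups of 3, all on ½ MS plates. Seedlings of the 7 days group had carbenicillin (10 µg/mL), a beta-lactam antibiotic that blocks cell wall synthesis in bacteria, for all 7 days, the last after a move to a fresh plate. Seedlings of the 1 day group spent 6 days without it and 1 day on plates that held 10 µg/mL. Mock seedlings were moved to fresh plates after 6 days too and had no carbenicillin. The labels call the libraries of a group replicas without stating that they came from separate cultures, so every p-value measures the spread between these libraries, which may be technical.

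Reactive oxygen is handled by a chain of enzymes. Superoxide dismutases turn superoxide into hydrogen peroxide, with copper and zinc (CSD1 in the cytosol, CSD2 in plastids), iron (FSD1) or manganese (MSD1 in mitochondria) at the active site. Catalases break hydrogen peroxide down in peroxisomes, and ascorbate peroxidases reduce it to water at the cost of ascorbate, which the ascorbate and glutathione cycle renews. The alternative oxidase AOX1A passes electrons from ubiquinol to oxygen in mitochondria without pumping protons, and its gene is a common marker of mitochondrial stress. Copper supply is known to set which superoxide dismutase a plant makes: when copper is short, the transcription factor SPL7 turns on FSD1 and the microRNA genes MIR398B, MIR398C and MIR408, and miR398 lowers the transcripts of CSD1, CSD2 and their copper chaperone CCS.

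Library depth was 13707967 to 16088265 counts in 6 libraries and lower in one of each group, with 6707693 counts in 7 days 3, 7533177 in 1 day 3 and 5820675 in mock 1. The 9 listed root markers were above 0 in every library and summed to 598 to 741 CPM (counts scaled to a common library total). The 10 listed shoot and photosynthesis markers summed to 289 CPM in 7 days 3, 222 CPM in 1 day 3, 142 CPM in mock 3 and 110 CPM in mock 1, and to 75.1 to 91.0 CPM in the other 5 libraries. The 8 listed touch and early wounding markers summed to 171 CPM in 7 days 3, 151 CPM in 1 day 3 and 155 CPM in mock 1, the libraries of low depth, and to 85.5 to 127 CPM in the other 6. In bulk roots, fewer cells of a type and less RNA per cell cannot be told apart. All levels below are CPM after scaling by trimmed means (TMM) unless stated otherwise.

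No antioxidant transcript passed the test for a change with carbenicillin. Of the 10 genes, 9 passed the filter on low counts, and APX2 did not. After 7 days against mock, 0 of the 9 passed an adjusted p under 0.05 (edgeR's quasi-likelihood test, Benjamini-Hochberg adjustment over 19580 genes), where 0% of all tested genes were called. After 1 day against mock, again 0 of the 9 were called, beside 0.158% of all tested genes (31 genes). Between 7 days and 1 day the count was also 0 of 9, beside 0% of all genes. None reached an unadjusted p under 0.05 either, a mark passed by 4.44%, 7.45% and 2.03% of all genes in the 3 comparisons in that order. DESeq2 called 0 of the 9 in each comparison as well, as did every other setting tried, among them the fit without the 3 libraries of low depth.

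The widest 95% intervals of the log2 fold changes against mock were those of CSD2, from -0.40 to 1.44 after 7 days and from -0.52 to 1.32 after 1 day. The median log2 fold change of the 9 was -0.01 after 7 days, beside 0.0013 over all genes, and -0.04 after 1 day, beside -0.0013 over all genes. It was -0.01 between 7 days and 1 day, beside 0.0021 over all genes. In the comparison of 1 day with mock, 3 of the 9 had groups that did not overlap (CAT1 higher, CAT2 and APX1 lower), beside 12.3% of all tested genes. In the comparison of 7 days with mock the count was 0, beside 9.15% of all genes, and between 7 days and 1 day it was 0, beside 6.37%.

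**Figure D1:**
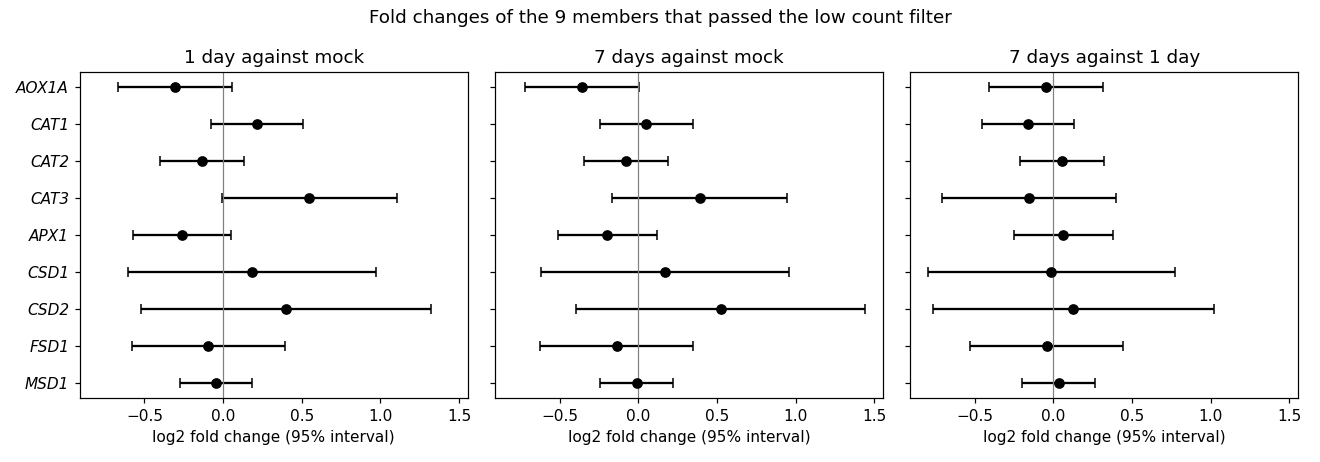
Log2 fold changes (x axis) of the 9 members that passed the low count filter, one panel per comparison; points are edgeR estimates and bars are 95% intervals. Every interval spans 0, and the widest are those of CSD1 and CSD2.

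Per kb of coding length, the 10 transcripts spanned more than 3 orders of magnitude. FSD1 stood first at 1401 ± 274 CPM per kb (SD over all 9 libraries), followed by APX1 at 1121 ± 137 CPM per kb. MSD1 had 272 ± 15.2 and CAT2 had 269 ± 21.1 CPM per kb. The leading 4 thus held 2 dismutases, a peroxidase and a catalase. CAT3 came next with 176 ± 46.3, then CSD1 with 141 ± 52.4 and AOX1A with 66.4 ± 12.7 CPM per kb. CAT1 (19.4 ± 2.30 CPM per kb) and CSD2 (19.1 ± 8.23 CPM per kb) were low, and APX2 averaged 0.511 CPM per kb. Neighbours in this order whose ranges over the 9 libraries overlapped were FSD1 with APX1, MSD1 with CAT2, CAT3 with CSD1, CSD1 with AOX1A, and CAT1 with CSD2. Thus the iron enzyme FSD1 and the ascorbate peroxidase APX1 were above all other members in every library, and CAT1, CSD2 and APX2 were below all others in every library.

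**Figure D2:**
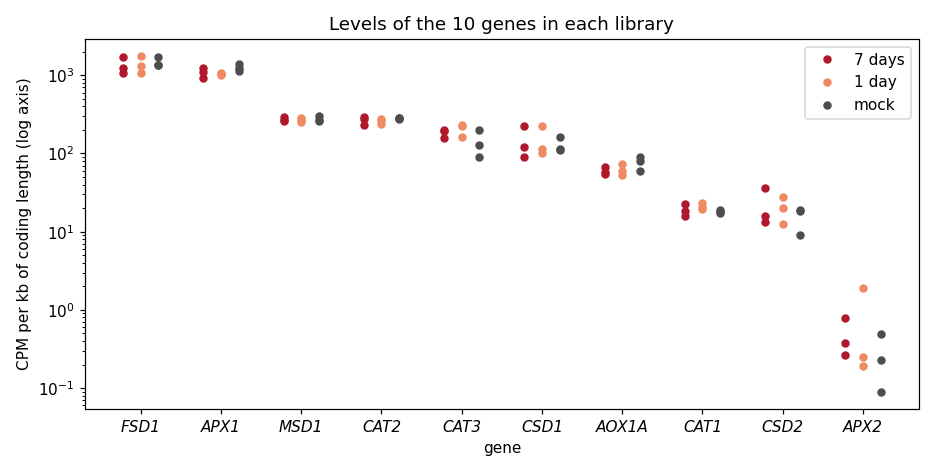
CPM per kb of coding length (y axis, log scale) for the 10 genes, ordered by mean level; each point is a library, coloured by group (7 days, 1 day, mock, left to right within a gene). The 3 groups overlap for most genes (CAT1, CAT2 and APX1 do not overlap between 1 day and mock), and the spread within groups is widest for CSD1, CSD2 and APX2 and narrowest for MSD1.

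The members also differed in how much they varied between libraries, whatever the group. The coefficient of variation over the 9 libraries was 43.1% for CSD2 and 37.2% for CSD1. It was 26.3% for CAT3, 19.5% for FSD1, 19.1% for AOX1A, 12.3% for APX1 and 11.9% for CAT1. CAT2 (7.86%) and MSD1 (5.60%) were the steadiest. The median over the 12738 tested genes with a mean of at least 10 CPM was 11.8%. Among the 9 tested members the copper and zinc enzymes CSD1 and CSD2 thus had the widest spread.

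**Figure D3:**
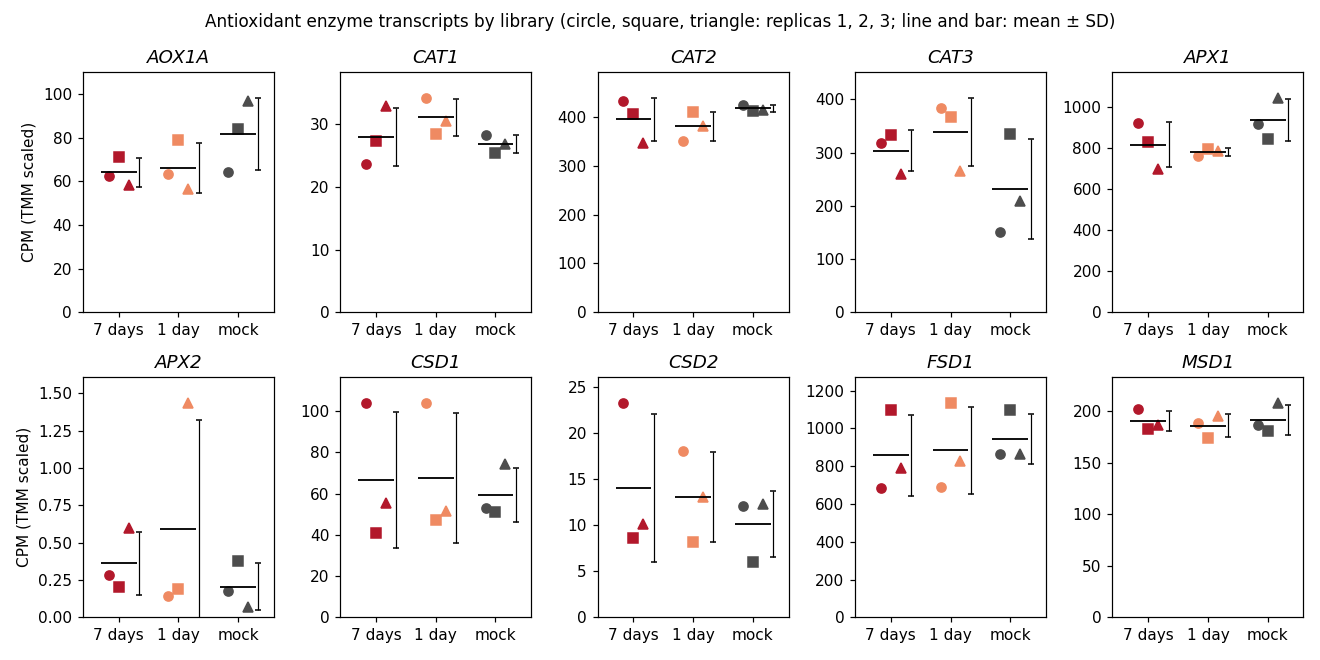
CPM (y axis, from 0) of each of the 10 genes in the 9 libraries; circle, square and triangle are replicas 1, 2 and 3, the line is the group mean and the bar its SD (n = 3), cut at 0 for APX2. CSD1 and CSD2 are highest in 7 days 1 and 1 day 1, and FSD1 is highest in replica 2 of each group.

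Among the superoxide dismutases, CSD1, CSD2 and FSD1 differed more between libraries of a group than between group means. CSD1 had 104, 41.1 and 55.3 CPM in the 7 days libraries (replicas 1, 2 and 3), 104, 47.0 and 51.6 CPM in the 1 day libraries, and 52.9, 51.0 and 74.3 CPM in mock. One library in each carbenicillin group, replica 1, was well above all mock libraries, and the other carbenicillin libraries lay at or near the low end of mock. CSD2 had 23.3, 8.65 and 10.2 CPM in the 7 days libraries, 18.0, 8.19 and 13.1 CPM in the 1 day libraries, and 12.1, 5.97 and 12.3 CPM in mock. The same pair, 7 days 1 and 1 day 1, was highest, and the groups overlapped. FSD1 ran the other way, with 683, 1099 and 790 CPM in the 7 days libraries, 690, 1136 and 827 CPM in the 1 day libraries, and 867, 1097 and 866 CPM in mock. Its lowest libraries were 7 days 1 and 1 day 1, and its highest were the 3 libraries numbered 2.

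MSD1, the mitochondrial manganese enzyme, hardly varied. It had 201, 183 and 186 CPM in the 7 days libraries, 188, 174 and 195 CPM in the 1 day libraries, and 186, 180 and 208 CPM in mock. All 3 groups overlapped.

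The ratio of CSD1 to FSD1, both in CPM, was 0.152 in 7 days 1 and 0.150 in 1 day 1. In the remaining 7 libraries it lay between 0.0373 and 0.0858. The group tests saw little of this: the log2 fold change of CSD1 was 0.17 ± 0.36 (SE) after 7 days and 0.18 ± 0.36 after 1 day against mock. That of CSD2 was 0.52 ± 0.42 after 7 days and 0.40 ± 0.42 after 1 day, and that of FSD1 was -0.14 ± 0.22 and -0.09 ± 0.22. The 95% intervals were wide, from -0.62 to 0.96 for CSD1 and from -0.40 to 1.44 for CSD2 after 7 days. Single libraries decided the sign or size of these estimates. For CSD1, without 7 days 1 the value after 7 days was -0.32, and without 1 day 1 the value after 1 day was -0.28. For CSD2, the value after 7 days was -0.089 without 7 days 1 and 0.22 without mock 2, and the value after 1 day was 0.067 without 1 day 1 and 0.098 without mock 2. MSD1 differed by -0.01 ± 0.11 after 7 days and -0.04 ± 0.11 after 1 day. None of these differences was called (edgeR adjusted p between 0.851 and 1.00).

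CSD1 and CSD2 transcripts are known targets of miR398. The mature microRNAs of the 3 MIR398 genes, with the seed (bases 2 to 8) in capitals, are shown because they are the same except in the last base of miR398a. They were copied from the RefSeq annotation of assembly TAIR10.1, plus strand, at chr5:4691107-4691127 (miR398b), chr5:4694778-4694798 (miR398c) and chr2:1041012-1041032 (miR398a).
miR398b-3p and miR398c-3p: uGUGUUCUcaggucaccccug
miR398a-3p: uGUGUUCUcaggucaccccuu
The seed is the same in both lines. MIR398A had at most 0.19 CPM in any library, so that MIR398B and MIR398C were the ones with measurable precursors.

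The best match to miR398b-3p in the annotated transcripts of CSD1, CSD2, CCS and COX5B-1 (a subunit of cytochrome c oxidase and another known target) is shown next, because these 4 are known targets of miR398. Each is written 5′ to 3′ in DNA letters of TAIR10.1. Bases that pair with the microRNA in an alignment without gaps are in capitals, and G-U pairs are in lower case.
CSD1 site: aAGGGGTttCCTGAGAtCACA
CSD2 site: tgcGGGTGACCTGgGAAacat
CCS site: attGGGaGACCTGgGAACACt
COX5B-1 site: aAGGtGTGACCTGAGAAtcac
The CSD1 site lies in the 5′ UTR across an intron (outer ends chr1:2827177-2827685, plus strand) and pairs at 17 of 21 bases. The CSD2 site is coding (chr2:12015572-12015592, plus strand) and pairs at 13 bases with 3 more G-U pairs. The CCS site is coding (chr1:4267521-4267541, minus strand) and the COX5B-1 site is in the 5′ UTR (chr3:5299204-5299224, plus strand), each with 15 paired bases and 1 G-U pair. Of the 27 genes searched, the other 23 had best matches of 11 to 14 paired bases. By this count CSD1, CCS and COX5B-1 exceeded them and CSD2 did not. The search allowed no gap or bulged base, so bases that pair beyond a bulge were not counted. Whether CSD2 would exceed the 23 with bulges allowed was not tested. Among these 23, BCB, a blue copper protein gene, had 14 paired bases and 2 G-U pairs in its 5′ UTR. A match is a description of letters and no measurement of cleavage.

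The MIR398C precursor ran opposite to CSD1 and CSD2, and also to MSD1. MIR398C had 11.7, 40.1 and 26.1 CPM in the 7 days libraries, 11.5, 43.8 and 23.6 CPM in the 1 day libraries, and 24.5, 40.2 and 14.0 CPM in mock. It was lowest in 7 days 1 and 1 day 1, where CSD1 and CSD2 were highest, and next lowest in mock 3, which came after them in CSD1. MIR398B had 3.44, 10.5 and 7.79 CPM in the 7 days libraries, 5.66, 13.2 and 7.44 CPM in the 1 day libraries, and 5.96, 11.8 and 6.93 CPM in mock, and was highest in replica 2 of each group. These counts come from a total RNA kit and stand for precursor transcripts; mature miR398 was not analysed here. MIR398B overlaps AT5G14550 on the opposite strand, which had 20.4 to 24.5 CPM, and whether the counting used strand is not stated, so its reads and those of AT5G14550 may not be fully separated. The same holds for CSD1 and AT1G08840 (11.2 to 15.6 CPM) and for CAT2 and AT4G35080 (33.3 to 48.6 CPM).

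Across the 9 libraries, log2 CPM of CSD1 and MIR398C gave a Pearson r of -0.93 (Spearman rho -0.87, exact permutation p 0.000254, adjusted p 0.00878 over 66 pairs). Without 7 days 1 and 1 day 1, the libraries farthest from the median of CSD1, r was -0.88. For CSD2 and MIR398C r was -0.90 (rho -0.95, exact permutation p 0.000532, adjusted p 0.00878), and -0.91 without mock 2 and 7 days 1. FSD1 and MIR398C went together, with r of 0.90 (rho 0.85, exact permutation p 0.00301, adjusted p 0.0153), and 0.83 without 1 day 2 and 7 days 2. MSD1, which holds manganese and is not among the targets listed above, also ran against MIR398C, with r of -0.79 (rho -0.88, exact permutation p 0.0119, adjusted p 0.0348), and -0.65 without mock 3 and 7 days 1, so the inverse relation was not particular to the copper enzymes. These p-values are for Pearson's r and two-sided over 362880 orderings of the libraries; for Spearman's rho the exact permutation adjusted p was 0.0198 for CSD1, 0.0149 for CSD2, 0.0236 for FSD1 and 0.0185 for MSD1. Over the 6 deep libraries alone, r with MIR398C was -0.96 for CSD1, -0.91 for CSD2, 0.97 for FSD1 and -0.81 for MSD1. The 3 libraries of low depth are too few for a value of their own. The relations were also there in deviations from group means (-0.94 for CSD1, -0.94 for CSD2, 0.92 for FSD1 and -0.82 for MSD1), that is, within groups. With MIR398B, r was -0.81 for CSD1, and -0.57 without 7 days 1 and 1 day 1. It was -0.93 for CSD2, 0.91 for FSD1 and -0.71 for MSD1. The exact permutation adjusted p with MIR398B was 0.0250 for CSD1, 0.00878 for CSD2, 0.00928 for FSD1 and 0.0643 for MSD1. For Spearman's rho of MSD1 with MIR398B (-0.82) the exact permutation adjusted p was 0.0323. The copper genes and these pairs were chosen with results of these libraries known, so the p-values describe the pattern and are no independent support for it. They also treat the 9 libraries as exchangeable, although 7 days and 1 day libraries of the same number deviated together over all genes (r 0.205, 0.257 and 0.245). Mock 2 also deviated with 7 days 2 (r 0.423) and 1 day 2 (r 0.339), and mock 1 with 7 days 3 (r 0.327) and 1 day 3 (r 0.360). The other pairs with mock ran from -0.379 to 0.229. To that extent the p-values are too small.

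**Figure D4:**
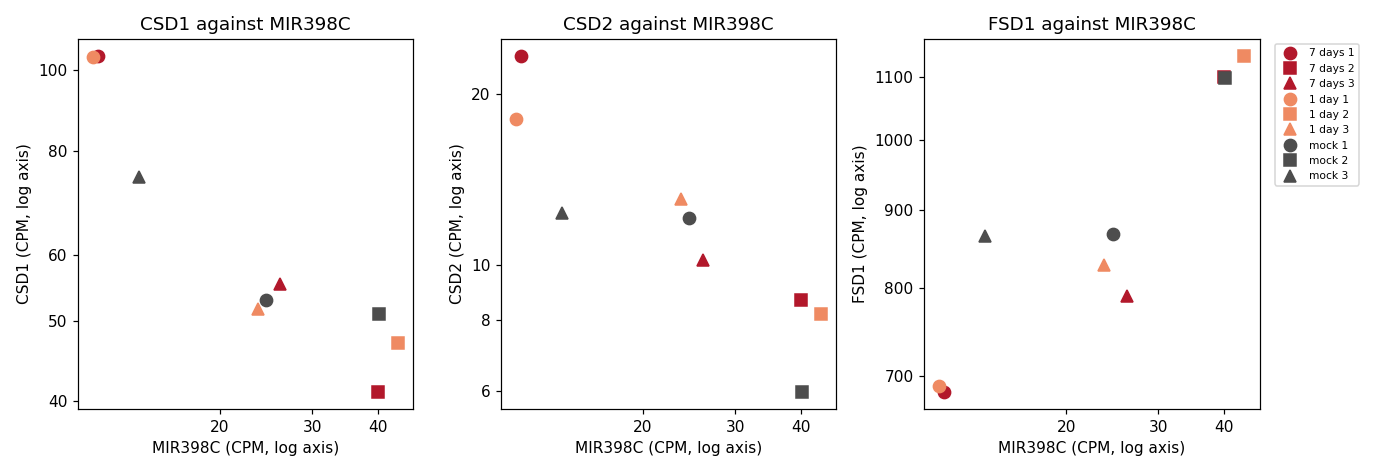
CSD1, CSD2 and FSD1 (y axes, CPM, log scale) against the MIR398C precursor (x axes, CPM, log scale) in the 9 libraries, with colours for groups and circle, square and triangle for replicas 1, 2 and 3. CSD1 and CSD2 are lower and FSD1 is higher where MIR398C is higher, with 7 days 1 and 1 day 1 at the low MIR398C end and the 3 libraries numbered 2 at the high end, where 7 days 2 and mock 2 nearly coincide for FSD1.

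The 66 pairs were the 4 superoxide dismutases against the 15 tested genes of a copper economy list, and the dismutases against each other, and 28 had an adjusted p under 0.05 (exact permutation test of Pearson's r). CSD1 was in 10 of its 18 pairs past the threshold, CSD2 in 9 of 18, FSD1 in 9 of 18 and MSD1 in 3 of 18. The count for MSD1 depended on the measure. By Spearman's rho, MSD1 also passed with CSD1 (rho 0.77, exact permutation adjusted p 0.0487) and with CSD2 (rho 0.87, exact permutation adjusted p 0.0198). The same held for MSD1 with MIR398B (rho -0.82, exact permutation adjusted p 0.0323). CSD1 and CSD2 correlated with r of 0.83 (rho 0.82, exact permutation adjusted p 0.0219), which dropped to 0.47 without 7 days 1 and 1 day 1 and so rests largely on these. CSD1 and FSD1 gave r of -0.83 (rho -0.90, exact permutation adjusted p 0.0250), and -0.59 without that pair of libraries. CSD2 and FSD1 gave r of -0.90 (rho -0.85, exact permutation adjusted p 0.00918), and -0.89 without mock 2 and 7 days 1. The pairs are not independent of each other, since all share the same 9 libraries. What share of pairs of other genes would pass was not tested, so these counts show no excess for the dismutases or the copper genes.

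CCS and COX5B-1 were high, and CITF1 low, in the libraries where CSD1 was highest. CCS, which loads copper into CSD1 and CSD2, had 24.0, 12.7 and 17.7 CPM in the 7 days libraries, 26.6, 19.1 and 14.8 CPM in the 1 day libraries, and 16.6, 13.6 and 14.9 CPM in mock. It was highest in 7 days 1 and 1 day 1, and its r with CSD1 of 0.80 (rho 0.68, exact permutation adjusted p 0.0348) was 0.16 without them. COX5B-1 had 109, 65.7 and 70.1 CPM in the 7 days libraries, 104, 51.4 and 72.5 CPM in the 1 day libraries, and 74.6, 62.9 and 88.2 CPM in mock. Its r with CSD1 was 0.91 (rho 0.90, exact permutation adjusted p 0.00918), and 0.74 without 7 days 1 and 1 day 1. CITF1, a transcription factor gene induced by low copper, had 9.11, 22.9 and 15.0 CPM in the 7 days libraries, 9.02, 26.7 and 20.8 CPM in the 1 day libraries, and 17.3, 21.3 and 19.7 CPM in mock. It was lowest in 7 days 1 and 1 day 1, as FSD1 was, and its r with FSD1 was 0.89 (rho 0.92, exact permutation adjusted p 0.00878), and 0.85 without 1 day 2 and 7 days 2. With CSD1 the r of CITF1 was -0.89 (rho -0.92, exact permutation adjusted p 0.0217), but -0.44 without 7 days 1 and 1 day 1. FRO5, a metal reductase gene, had 204 CPM in 7 days 1 and 186 CPM in 1 day 1, and 345 to 445 CPM in the remaining 7 libraries. Its r with CSD1 was -0.89 (rho -0.53, exact permutation adjusted p 0.0250), but -0.33 without 7 days 1 and 1 day 1, so that it rests on these, and the adjusted p for rho was 0.221. COPT2 and LAC2 also passed with CSD1. For COPT2 r was -0.85 (rho -0.90, exact permutation adjusted p 0.0153), and -0.49 without 7 days 1 and 1 day 1. For LAC2 r was 0.80 (rho 0.57, exact permutation adjusted p 0.0358), but 0.06 without these libraries, and the adjusted p for rho was 0.199. Genes of the list that did not pass with CSD1 included FRO4 (r -0.13), COPT1 (-0.42), ZIP2 (-0.48), BCB (-0.50) and ARPN (0.04). Their exact permutation adjusted p was 0.791, 0.373, 0.285, 0.275 and 0.919 in that order. SPL7 spanned 66.5 to 79.5 CPM, and its r was -0.86 with CSD2 (rho -0.90, -0.87 without mock 2 and 7 days 1) and 0.89 with FSD1 (rho 0.80, 0.87 without 1 day 2 and 7 days 2), each with an exact permutation adjusted p of 0.0153. With MSD1 its r was -0.79 (rho -0.87, exact permutation adjusted p 0.0348, and -0.83 without mock 3 and 7 days 1). With CSD1 it was -0.73 and not past the threshold (rho -0.83, exact permutation adjusted p 0.0597 for r and 0.0287 for rho, and -0.60 without 7 days 1 and 1 day 1). By Spearman's rho, the exact permutation adjusted p of the pair of CSD1 and CCS was 0.107, and those of the pairs of CSD1 with CSD2, FSD1 and COX5B-1, of CSD2 with FSD1 and SPL7, of FSD1 with CITF1 and SPL7, and of MSD1 with SPL7 lay between 0.0149 and 0.038.

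**Figure D5:**
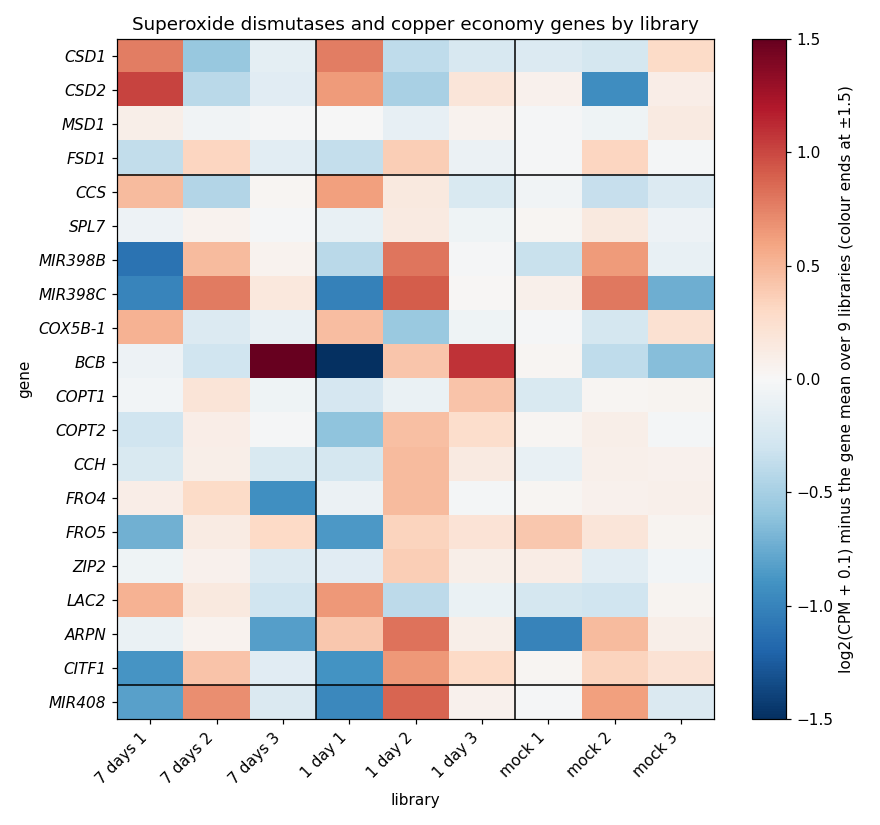
Log2(CPM + 0.1) of each gene minus its mean over the 9 libraries (colour), for the 4 superoxide dismutases (top), the 15 tested copper economy genes (middle) and MIR408 (bottom); columns are libraries, ordered 7 days, 1 day and mock. In 7 days 1 and 1 day 1, CSD1, CSD2, CCS, COX5B-1 and LAC2 are high while FSD1, MIR398B, MIR398C, FRO5, CITF1 and MIR408 are low.

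None of the 15 tested copper genes was called in any comparison (edgeR's quasi-likelihood test), and the list's median log2 fold change was -0.05 after 7 days and 0.07 after 1 day against mock. Those with the lowest p were BCB (0.95 ± 0.76) and the laccase gene LAC2 (0.36 ± 0.29) after 7 days, and CCS (0.45 ± 0.25) and the plantacyanin gene ARPN (0.44 ± 0.32) after 1 day, as log2 fold changes with SE. MIR398C differed by -0.02 ± 0.53 after 7 days and 0.0046 ± 0.53 after 1 day. The shoot markers, which were highest in 7 days 3, 1 day 3 and the deep library mock 3, summed to 78.6 CPM in 7 days 1 and 91.0 CPM in 1 day 1, close to the 75.1 to 87.2 CPM of 7 days 2, 1 day 2 and mock 2. The labels do not say what replicas of the same number share, and mock 1 did not have the profile of 7 days 1 and 1 day 1. The source of that profile was not tested.

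MIR408, the precursor of another copper microRNA, was the gene whose log2 CPM was most like that of FSD1 among 12737 tested genes, with r of 0.98 over the 9 libraries. It had 14.4, 41.4 and 21.9 CPM in the 7 days libraries, 13.0, 46.8 and 26.8 CPM in the 1 day libraries, and 25.2, 39.1 and 21.9 CPM in mock. Like MIR398C it was lowest in 7 days 1 and 1 day 1. The 250 bases before the annotated starts of FSD1, MIR408 and MIR398B are shown because these 3 moved together and because SPL7 is known to bind the core letters GTAC, in capitals. They were read from TAIR10.1 at chr4:12887012-12887261 (minus strand), chr2:19319564-19319813 (plus strand) and chr5:4690772-4691021 (plus strand).
FSD1 upstream: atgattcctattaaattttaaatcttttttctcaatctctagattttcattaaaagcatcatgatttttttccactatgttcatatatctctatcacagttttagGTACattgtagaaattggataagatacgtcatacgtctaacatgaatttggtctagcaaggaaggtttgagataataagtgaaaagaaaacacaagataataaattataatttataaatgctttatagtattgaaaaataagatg
MIR408 upstream: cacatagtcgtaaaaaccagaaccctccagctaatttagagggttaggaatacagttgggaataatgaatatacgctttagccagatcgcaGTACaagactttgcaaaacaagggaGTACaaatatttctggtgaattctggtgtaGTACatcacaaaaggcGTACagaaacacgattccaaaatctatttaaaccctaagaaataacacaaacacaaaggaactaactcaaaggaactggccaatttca
MIR398B upstream: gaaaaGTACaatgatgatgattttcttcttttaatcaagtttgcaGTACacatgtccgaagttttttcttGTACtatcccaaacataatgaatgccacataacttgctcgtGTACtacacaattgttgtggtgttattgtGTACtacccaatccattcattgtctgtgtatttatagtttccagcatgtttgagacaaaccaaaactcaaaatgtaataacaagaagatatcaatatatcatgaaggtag
GTAC reads the same on both strands. It occurred 5 times in the MIR398B window, 4 times in that of MIR408, 3 times in that of MIR398C, 2 times each in those of CSD1 and CAT2 and 1 time each in those of FSD1 and APX2. The windows of AOX1A, CAT1, CAT3, APX1, CSD2 and MSD1 held none. In the rest of the copper economy list, ZIP2 had 3, ARPN had 2, and CCS, BCB and CCH had 1 each. Those of SPL7, MIR398A, COX5B-1, COPT1, COPT2, FRO4, FRO5, LAC2 and CITF1 held none. Outside that list, the touch and wounding genes ZAT10 and CML38 and the heat shock list gene GOLS1 had 3 each, as many as MIR398C. Over 27995 windows of that length, 34.4% held at least 1 GTAC, 7.71% at least 2, 1.43% at least 3 and 0.275% at least 4. The annotated transcripts of MIR398B and MIR398C are only 116 and 115 bases long. The annotated starts of microRNA genes may thus not be transcription starts, and their windows may not be like those of coding genes.

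The listed superoxide dismutases outside the 10 were low. CSD3, a peroxisomal copper and zinc enzyme, averaged 13.8 CPM in the 7 days group, 15.1 CPM in the 1 day group and 13.5 CPM in mock. Over the 9 libraries FSD3 had 8.38 to 12.3 CPM and FSD2 had 3.20 to 6.66 CPM, and MSD2 was mostly at 0 and failed the filter. None of the 3 tested was called in any comparison. The log2 fold changes with the lowest p were 0.23 ± 0.26 for FSD2 and -0.04 ± 0.16 for FSD3 after 7 days, and 0.17 ± 0.15 for CSD3 and 0.12 ± 0.16 for FSD3 after 1 day.

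Among the catalases, CAT3 had the largest single estimate of any member, and it was not called. CAT3 had 318, 334 and 261 CPM in the 7 days libraries, 385, 367 and 265 CPM in the 1 day libraries, and 150, 334 and 210 CPM in mock. Mock spanned more than a factor of 2, and its highest library reached into both carbenicillin groups. The log2 fold change was 0.39 ± 0.25 after 7 days (adjusted p 1.00) and 0.55 ± 0.25 after 1 day (adjusted p 0.677, unadjusted p 0.0530), each from edgeR's quasi-likelihood test. In each group the library of low depth had the least CAT3. Without those 3 libraries the values were 0.26 after 7 days and 0.47 after 1 day. Mock libraries decided its size: without mock 1 the values were 0.16 after 7 days and 0.32 after 1 day, and without mock 2 they were 0.76 and 0.91. The part of depth or of shoot RNA in this was not tested.

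CAT2, the main leaf catalase, was steadier, with 433, 407 and 346 CPM in the 7 days libraries, 351, 410 and 381 CPM in the 1 day libraries, and 425, 412 and 415 CPM in mock. All 1 day libraries were below all mock libraries, by a narrow margin, and the 7 days libraries spanned the mock range. Its log2 fold change was -0.08 ± 0.12 after 7 days and -0.13 ± 0.12 after 1 day (edgeR adjusted p 1.00 and 0.836). CAT1 had 23.8, 27.3 and 33.0 CPM in the 7 days libraries, 34.3, 28.5 and 30.6 CPM in the 1 day libraries, and 28.4, 25.5 and 26.9 CPM in mock. All 1 day libraries were above all mock libraries, the closest pair being 28.5 and 28.4 CPM. Its log2 fold change was 0.05 ± 0.13 after 7 days and 0.21 ± 0.13 after 1 day (edgeR adjusted p 1.00 and 0.775). The ratio of CAT3 to CAT2 in CPM was 0.734, 0.821 and 0.753 in the 7 days libraries, 1.097, 0.894 and 0.695 in the 1 day libraries, and 0.354, 0.811 and 0.505 in mock, where mock 2 lay within both carbenicillin ranges.

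None of the 7 listed partners and peroxisomal genes, all tested, was called. GOX2, a glycolate oxidase that makes hydrogen peroxide in photorespiration, had 24.1, 16.8 and 34.3 CPM in the 7 days libraries, 23.1, 22.9 and 17.9 CPM in the 1 day libraries, and 14.7, 13.5 and 16.0 CPM in mock. Both carbenicillin groups were above all mock libraries, with log2 fold changes of 0.74 ± 0.22 after 7 days and 0.54 ± 0.22 after 1 day (edgeR adjusted p 0.739 and 0.590). Of all tested genes, 4.62% lay above mock without overlap after 7 days and 6.52% after 1 day, and GOX2 was named for its low p. The highest value of GOX2 was in 7 days 3, the library with the highest sum of the shoot and photosynthesis markers. A link of GOX2 to these markers was not tested. Without the 3 libraries of low depth, 7 days 3 among them, the values were 0.47 after 7 days and 0.64 after 1 day (edgeR adjusted p 0.764 and 0.240). LSD1, a zinc finger protein known to interact with catalases, differed by 0.14 ± 0.14 and 0.32 ± 0.14 (edgeR adjusted p 1.00 and 0.646).

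The ascorbate peroxidases split by level. APX1, the main cytosolic enzyme, had 920, 830 and 698 CPM in the 7 days libraries, 759, 797 and 787 CPM in the 1 day libraries, and 919, 844 and 1045 CPM in mock. All 1 day libraries were below all mock libraries, and the 7 days libraries overlapped both. The log2 fold change was -0.20 ± 0.14 after 7 days and -0.26 ± 0.14 after 1 day (edgeR adjusted p 1.00 and 0.734), with 95% intervals from -0.51 to 0.12 and from -0.57 to 0.05. The value after 7 days was -0.097 without 7 days 3 and -0.11 without mock 3. APX2, a cytosolic enzyme strongly induced by heat and high light, had 4, 3 and 4 counts in the 7 days libraries, 2, 3 and 11 in the 1 day libraries, and 1, 6 and 1 in mock. Its highest value, 1.44 CPM, was in 1 day 3. A count of 3, the limit that a count of 0 allows, equals 0.186 to 0.515 CPM at these depths (counting error only), and differences of that size were not detectable. APX2 was not tested, since it failed the filter. Of 8 tested genes of a heat shock list, 0 were called. Those with the lowest p were MBF1C (-0.49 ± 0.30) and HSP70-4 (-0.42 ± 0.34) after 7 days, and HSA32 (0.58 ± 0.32) and MBF1C (-0.42 ± 0.30) after 1 day, as log2 fold changes with SE.

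The other ascorbate peroxidases were led by SAPX, which serves plastids and mitochondria. It had 143, 132 and 110 CPM in the 7 days libraries, 118, 92.9 and 124 CPM in the 1 day libraries, and 159, 132 and 151 CPM in mock, with all 1 day libraries below mock. The log2 fold change was -0.20 ± 0.14 after 7 days and -0.40 ± 0.14 after 1 day (edgeR adjusted p 1.00 and 0.481), and the value after 7 days was -0.045 without the 3 libraries of low depth. APX6 differed by 0.40 ± 0.18 and 0.47 ± 0.18 at a level of 3.15 to 5.66 CPM (edgeR adjusted p 1.00 and 0.522). None of the 6 was called.

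Most genes of the ascorbate and glutathione cycle had estimates below 0 after 1 day, and none was called. Of its 15 tested genes 0 were called in any comparison, and 13 had estimates below 0 after 1 day against mock (median -0.14, beside -0.0013 over all genes). After 7 days the number below 0 was 9 of 15 (median -0.11). VTC2, which catalyses the committed step of ascorbate synthesis, had 66.7, 82.0 and 69.1 CPM in the 7 days libraries, 54.6, 67.7 and 61.5 CPM in the 1 day libraries, and 82.2, 91.2 and 84.0 CPM in mock. Both carbenicillin groups were below all mock libraries, narrowly so after 7 days, with log2 fold changes of -0.24 ± 0.12 after 7 days and -0.49 ± 0.12 after 1 day (edgeR adjusted p 1.00 and 0.174). Of all tested genes, 4.53% lay below mock without overlap after 7 days and 5.79% after 1 day, and VTC2 was named for its low p. GR1, a glutathione reductase, had 352, 441 and 329 CPM in the 7 days libraries, 294, 315 and 343 CPM in the 1 day libraries, and 420, 545 and 448 CPM in mock. It was below mock in all 1 day libraries, with a log2 fold change of -0.33 ± 0.15 after 7 days and -0.57 ± 0.15 after 1 day (edgeR adjusted p 1.00 and 0.251).

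Thiol peroxidases, which also reduce peroxides, showed no common direction. Of 14 tested genes 0 were called, with medians of -0.02 after 7 days and 0.02 after 1 day on the log2 scale. GPX1, a plastid enzyme, differed by 0.30 ± 0.17 after 7 days and 0.51 ± 0.17 after 1 day, and GPX6 by -0.40 ± 0.16 after 1 day (edgeR adjusted p 1.00, 0.427 and 0.565). PRXQ, a plastid peroxiredoxin, differed by 0.34 ± 0.20 after 7 days. Ferritins, which store iron, had 0 of 4 called. FER2 differed by -0.12 ± 0.23 after 7 days and -0.38 ± 0.24 after 1 day, FER4 by 0.03 ± 0.22 after 7 days and FER3 by -0.18 ± 0.21 after 1 day.

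AOX1A had 62.4, 71.2 and 58.5 CPM in the 7 days libraries, 63.4, 78.8 and 56.4 CPM in the 1 day libraries, and 64.1, 84.1 and 97.0 CPM in mock. Mock held the highest values, but mock 1 lay within both carbenicillin groups. The log2 fold change was -0.36 ± 0.16 after 7 days (95% interval -0.72 to 0.01, adjusted p 1.00, unadjusted p 0.0534) and -0.31 ± 0.16 after 1 day (95% interval -0.67 to 0.05, adjusted p 0.721), each from edgeR's quasi-likelihood test. In each group the library of low depth had the least AOX1A, and without those 3 the values were -0.44 after 7 days and -0.35 after 1 day, again not called (adjusted p 0.677 and 0.502, unadjusted p 0.0157 and 0.0417). With mock 3 alone left out, the values were -0.22 after 7 days and -0.17 after 1 day. AOX1B, AOX1C, AOX1D and AOX2 were each below 1 CPM in every library. AOX1D had 5, 3 and 0 counts in the 7 days libraries, 7, 8 and 3 in the 1 day libraries, and 2, 15 and 10 in mock, and failed the filter. It was tested in the fit without the 3 libraries of low depth, where its log2 fold change was -1.52 ± 0.52 after 7 days (unadjusted p 0.0172) and -0.68 ± 0.46 after 1 day, and it was not called (edgeR adjusted p 0.685 and 0.690).

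The alternative NADH dehydrogenases feed the same pathway. NDB2, an external enzyme often found to change together with AOX1A, had 196, 206 and 152 CPM in the 7 days libraries, 179, 160 and 193 CPM in the 1 day libraries, and 244, 234 and 247 CPM in mock. All 6 carbenicillin libraries were below all mock libraries. Of all tested genes, 4.53% lay below mock without overlap after 7 days and 5.79% after 1 day, and NDB2 was named for its low p. The log2 fold change was -0.38 ± 0.13 after 7 days and -0.45 ± 0.13 after 1 day, and neither was called (edgeR adjusted p 0.886 and 0.344). Of the 7 genes tested in this list 0 were called. NDB4, another external enzyme, averaged 0.482 CPM in the 7 days group and 1.57 CPM in mock, with a log2 fold change of -1.61 ± 0.71 (edgeR unadjusted p 0.0430, adjusted p 1.00). NDB3 averaged 0.820 CPM in the 1 day group and 0.344 CPM in mock, with 1.01 ± 0.55 (edgeR adjusted p 0.729). Among 9 tested targets of mitochondrial retrograde signalling 0 were called. Of these, 6 had estimates below 0 after 7 days (median -0.25) and 6 had estimates above 0 after 1 day (median 0.07). The factor NAC013, one of the 2 with the lowest p, differed by -0.37 ± 0.19 after 7 days and -0.23 ± 0.19 after 1 day. OM66, a protein of the outer mitochondrial membrane, differed by -0.42 ± 0.23 and -0.26 ± 0.22 in the same order, so that after 1 day both lay on the other side of 0 from most of the list. Over the 10 lists of related genes, 0 of 88 tested genes were called in any comparison, and 0 in the fit without the 3 libraries of low depth.

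Between 7 days and 1 day the members differed least. The log2 fold changes of the 9 lay between -0.16 (CAT1 and CAT3) and 0.13 (CSD2), and all groups overlapped. AOX1A differed by -0.05 ± 0.16, APX1 by 0.06 ± 0.14, CAT2 by 0.05 ± 0.12, CSD1 by -0.01 ± 0.36, FSD1 by -0.04 ± 0.22 and MSD1 by 0.03 ± 0.11. The 95% interval was narrowest for MSD1, from -0.20 to 0.26, and widest for CSD2, from -0.77 to 1.02. The related genes with the lowest p in this comparison were likewise not called. Those with estimates above 0 were VTC2 (0.25 ± 0.12), GR1 (0.24 ± 0.15), SAPX (0.20 ± 0.14), PRXQ (0.46 ± 0.20), FER2 (0.26 ± 0.24) and FER3 (0.17 ± 0.20). Below 0 were NDB4 (-1.48 ± 0.71), NDA2 (-0.22 ± 0.13), UPOX (-0.59 ± 0.39), SOT12 (-0.23 ± 0.16), LSD1 (-0.18 ± 0.14), NCA1 (-0.14 ± 0.11) and APX5 (-0.22 ± 0.13). The same held for PRXIIC (-0.40 ± 0.26), ARPN (-0.70 ± 0.32), CCH (-0.26 ± 0.18), HSA32 (-0.67 ± 0.33), GOLS1 (-0.19 ± 0.23), CSD3 (-0.14 ± 0.15) and FSD3 (-0.15 ± 0.16). Their edgeR adjusted p was 1.00 each.

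For each member the 2 genes with the most similar log2 CPM over the 9 libraries were looked up among 12737 genes, as a description. AOX1A was most like GSTF6 (r 0.98), a glutathione transferase gene, and AT3G52870 (r 0.97). GSTF6 had 49.4, 60.6 and 33.4 CPM in the 7 days libraries, 47.4, 91.7 and 35.6 CPM in the 1 day libraries, and 45.9, 141 and 286 CPM in mock, with mock 2 and mock 3 highest, as for AOX1A. CAT3 was most like the plastid gene ATCG00070 (r 0.99) and the transporter gene UMAMIT17 (r 0.98), both lowest in mock 1. FSD1 followed MIR408 and BLH4, a homeobox gene (r 0.94). CSD1 was most like AT1G66430 (r 0.93) and AT1G60680 (r 0.91), and CSD2 like SUR1 (r 0.95), a gene of glucosinolate synthesis, and AT1G80530 (r 0.93). APX1 was most like AT5G43420 (r 0.95) and COX15 (r 0.94), CAT1 like ABA2 (r 0.91) and AT1G65220 (r 0.89), and CAT2 like FLA16 (r 0.94) and SSL3 (r 0.93). MSD1 was most like the small GTPase gene RAN2 (r 0.97) and AT3G11510 (r 0.97). The points share libraries and their depth, and the genes were picked as the highest of many.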

How the data were processed

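Libraries came from a stranded kit for total RNA (labels' protocols). The deposited values are raw counts per gene, whole and not normalized, as the authors made them. The submitters' processing notes name FastQC, cutadapt and edgeR. Which aligner, counter, genome build and strand option were used is not given in the sources used here. Left out were 2 blank lines and 1 line of library names. Names, coding lengths and sequences came from RefSeq (TAIR10.1), where 28009 of the 28775 genes were found.

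The test was that of edgeR 4.0.16 under R 4.3.3 (filterByExpr, TMM, glmQLFit, glmQLFTest), in 1 fit of all 9 libraries with group as the only factor; 19580 genes passed the filter. A Benjamini-Hochberg adjusted p under 0.05 was a call, and the SE of a log2 fold change was its size over the square root of F. Correlations used log2 CPM with a prior count of 2. The fits were also run on simulated counts with known fold changes. The share recovered is not given here, so the power of the tests is not stated. Members, lists, tests and alternatives were chosen with earlier results of these data known. Named were all 10 members, the 2 genes most like each, close homologs, and the called genes of each list of related genes or else the 2 with the lowest p in each comparison (marker lists are given as sums); the copper genes set beside the dismutases were picked after their values had been seen. Alternatives were other scalings and filters, DESeq2 1.42.0, a replicate block, 2 groups only, no organelle or ribosomal RNA genes, depth as a term, the 3 libraries of low depth left out, an adjusted p under 0.01, and each library left out.

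Pairing by replicate number was checked by the correlation of deviations from group means. Between 7 days and 1 day it was 0.205, 0.257 and 0.245 for the same numbers and -0.200 to 0.0277 for others, so same-number libraries of these groups deviated together. Libraries of low depth also deviated together across numbers, mock 1 with 7 days 3 (0.327) and with 1 day 3 (0.360). For replica 3, number and depth thus cannot be told apart. No libraries of a group were duplicates.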

Additional observations from a re-analysis of the deposited data

How the results depend on the processing

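The 9 tested members gave 27 log2 fold changes, each recomputed under 20 alternatives. In 511 of these 540 the direction stayed and in 29 it turned, and 0 passed the threshold (lowest adjusted p 0.225, CAT3 after 1 day, edgeR). No alternative called a member. The values that turned belong to small or widely spread differences. After 7 days against mock, CAT1 was -0.037 and CAT2 0.023 without the 3 libraries of low depth, and MSD1 was 0.0016 with upper quartile scaling. Leaving out each library in turn gave, after 1 day against mock, -0.28 to 0.39 for CSD1, -0.32 to 0.055 for FSD1 and -0.085 to 0.017 for MSD1. After 7 days against mock it gave -0.072 to 0.16 for CAT1, -0.15 to 0.0084 for CAT2, -0.32 to 0.43 for CSD1, -0.089 to 0.79 for CSD2, -0.36 to 0.0021 for FSD1 and -0.054 to 0.052 for MSD1. Between 7 days and 1 day it gave -0.15 to 0.10 for AOX1A, -0.016 to 0.14 for CAT2, -0.032 to 0.16 for APX1, -0.50 to 0.45 for CSD1, -0.49 to 0.45 for CSD2, -0.26 to 0.18 for FSD1 and -0.012 to 0.073 for MSD1. The cause was not tested.

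The count of all genes called after 1 day against mock was 31. It was 61 with no filter, 199 with DESeq2, 94 without the 3 libraries of low depth, 58 with depth as a term, 0 at an adjusted p under 0.01, and 0 to 44 with a library left out (0 without 1 day 1, without 1 day 2 or without mock 3). After 7 days it was 0 (870 genes at an unadjusted p under 0.05), with 46 by DESeq2, 13 without the 3 libraries of low depth and 2 with depth as a term. With a replicate block the count after 1 day was 41 in all 9 libraries and 74 in the 2 groups compared, and the block changed no member's call in any comparison. With mock, the same-number correlations were -0.141 to 0.339 for 1 day and -0.187 to 0.423 for 7 days. Only 1 of 3 was over 0.1 in each, that of replica 2, which is no pairing of all 3 numbers by that measure. Depth limits APX2, AOX1B, AOX1C, AOX2, MSD2 and MIR398A, whose values are a few counts.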
